A study of Mus musculus with 6 samples.

Results

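Sterol synthesis and SREBP2 target genes were followed in NIH/3T3 cells after knockdown of Aldoa, the glycolytic enzyme aldolase A. The members were a list of 31 genes named by symbol: the enzymes from acetyl-CoA to cholesterol, the SREBP regulators, a group of sterol transport genes and some isoprenoid and lipid genes. Of these, 30 had a row among the 18001 genes of the expression table, and Mvd was dropped because no row carried its symbol. NIH/3T3 is an immortalized mouse fibroblast line, grown here in medium with fetal calf serum. The cells were transfected with siRNAs targeting Aldoa (siAldoa), which the study describes as a pool, or with non-targeting control siRNAs (siCtrl), for 48 h. The libraries were made from poly(A) RNA, with 3 per group, which the study calls biological replicates. There was 1 cell line, 1 set of targeting siRNAs, 1 time point and no rescue, so loss of Aldoa and other effects of these siRNAs cannot be told apart. RNA was taken from whole cultures, in which fewer cells of a type and less RNA per cell cannot be told apart.

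Cholesterol is made from acetyl-CoA through mevalonate, the isoprenoid farnesyl diphosphate, squalene and lanosterol. The transcription factor SREBP2, made from Srebf2, drives most of these genes. It is held in the endoplasmic reticulum by Scap and the Insig proteins when sterols are plentiful, and is released for cleavage in the Golgi when they are scarce. Fibroblasts both make sterols and take them up in lipoproteins, whose cholesterol leaves the lysosome through Npc2 and Npc1. Farnesyl diphosphate also feeds protein prenylation, ubiquinone and dolichol.

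Each library held between 3692341 and 3771129 reads, and 3 reads corresponded to 0.786 to 0.822 CPM, the unit of the deposited levels, which scales a gene's reads to the library size. Aldoa measured 522, 536 and 545 CPM in the siCtrl libraries and 62.9, 69.2 and 72.0 CPM in the siAldoa libraries, 12.7% of the siCtrl mean. Replicates 1 and 2 were closer to each other (chi-square per degree of freedom of 1.12 in siCtrl and 1.11 in siAldoa) than either was to replicate 3 (1.97 to 3.03), and both of the closer pairs differed by more than sampling noise. All 10 fibroblast markers on a fixed list had a row, with summed levels of 15136.7 to 15683.9 CPM in siCtrl and 12670.2 to 13372.3 CPM in siAldoa. Of these markers 5 fell and 4 rose at an adjusted p-value under 0.05, beside 10.0% of all genes lower and 10.4% higher. The epithelial markers with a row (4 of 6) summed to 6.8 to 11.2 CPM in siCtrl and 1.8 to 4.3 CPM in siAldoa. Of these 2 fell, among them Krt8, with 0 to 6 reads a library and overlapping groups. Krt18 was at 0 in siAldoa, but it had only 1 to 5 reads in siCtrl and did not pass that threshold. Endothelial markers (4 of 6) summed to 9.9 to 11.1 and 5.5 to 9.2 CPM, leukocyte markers (6 of 6) to 18.3 to 25.2 and 25.9 to 28.5 CPM with 1 rise, Cd14, and hepatocyte markers (3 of 6) to 4.4 to 5.8 and 4.3 to 7.1 CPM. The part of these markers' cells in the results was not tested.

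At an adjusted p-value under 0.05, 18 of the 30 measured sterol genes fell and 3 rose in siAldoa. Over the whole table the same call was made for 10.0% of genes in the lower direction and for 10.4% in the higher direction. These shares include scarce genes, whereas 29 of the 30 sterol genes lay above the lower quartile of mean CPM. Among genes above that quartile, 1948 were called lower and 1978 higher, against 1809 and 1867 of all genes. The shares in that smaller set were therefore higher. The median log2 fold change of the 30 genes was -0.394, against -0.0023 over all genes, with 1 added to each CPM before taking logs, so that changes of scarce transcripts are damped. In 17 sterol genes every siAldoa library lay below every siCtrl library and in 2 every siAldoa library lay above, compared with 17.1% and 16.7% of all genes. With 3 libraries a group an exact permutation test cannot go below p = 0.1, and it gave this value for each of these 19 genes. Tests named below are limma's, two-sided and adjusted over all 18001 genes. Leaving out replicate 3 of both groups lowered the number of sterol genes called to 13, of which 11 were lower and 2 higher.

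**Figure D1:**
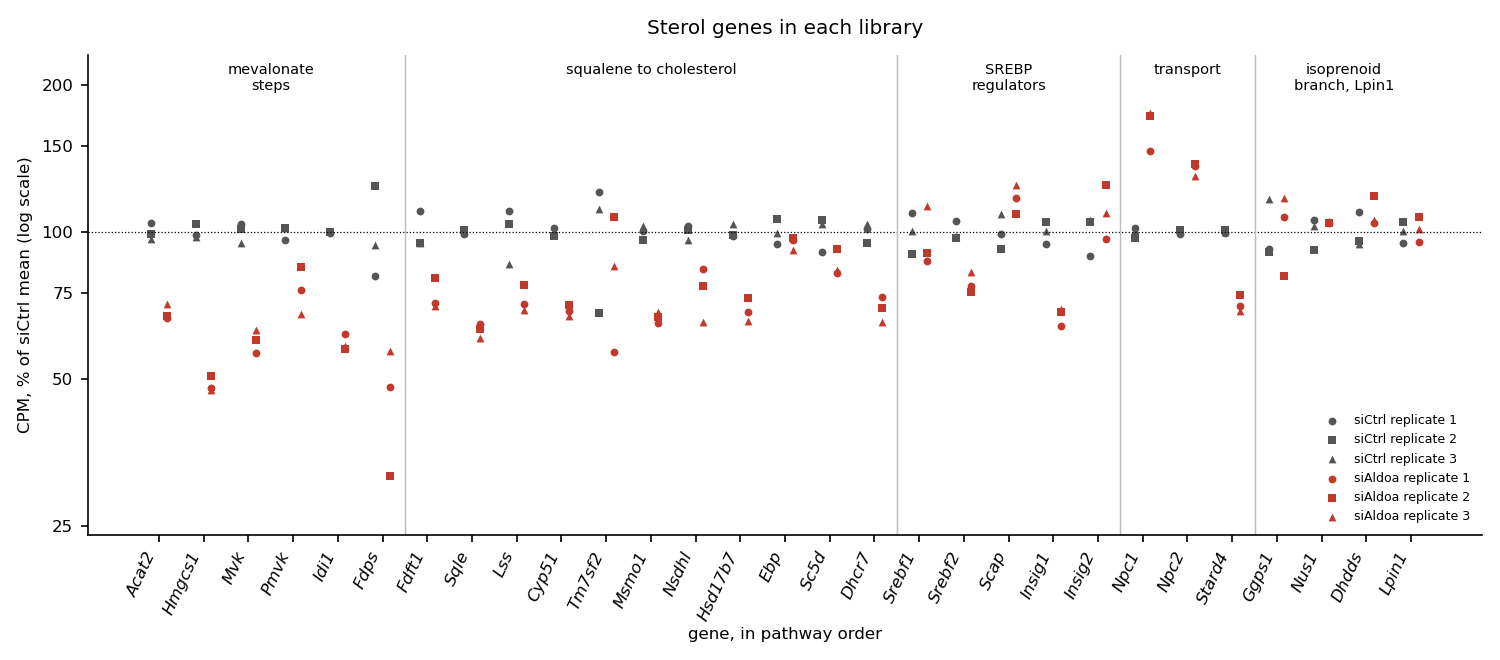
Level of each sterol gene in each library, as a percentage of the gene's siCtrl mean CPM (y axis, log scale), with genes along the x axis in pathway order, siCtrl in grey, siAldoa in red and replicates 1, 2 and 3 as circles, squares and triangles; Abca1, with 0 to 3 reads, is left out. Most synthesis genes have their 3 red points below the 3 grey ones, whereas Npc1 and Npc2 have them above.

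The promoters of the members were read from RefSeq on GRCm38.p6, as windows of 300 bases from 250 before to 50 after each start. Windows were found for 26 of the 31 genes, 34 windows in all, and not for Fdps, Fdft1, Sqle, Stard4 and Npc1. Both strands were searched for TCACNCCA, a form of the sterol regulatory element bound by SREBP proteins, for CCAAT, the box bound by NF-Y, a factor known to act with SREBP, and for CACGTG, an E-box. The end of TCACNCCA can share letters with CCAAT, which it did in none of the matches shown here. TCACNCCA was found in the windows of 3 sterol genes, 8.82% of the 34 windows against 4.36% of all 32817 promoter windows. These genes were Hmgcs1, Msmo1 and Srebf2, all of which fell in siAldoa. Of the 26 genes with a window 14 fell, these 3 included, and a link between the element and the fall was not tested. CCAAT was found in 67.6% of the sterol windows against 37.4% of all, and CACGTG in 23.5% against 7.15%. Within the sterol genes, CCAAT was in 76.5% of the 17 windows of genes that fell and in 58.8% of the 17 windows of the other genes, among them Mvd, whose level was not analysed here. CACGTG was in 23.5% of the windows of either kind.

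The sequences of the 3 genes with TCACNCCA are shown because this is the element that gives the SREBP targets their name, beside Insig1, which fell, and Npc2, which rose, whose windows have only CCAAT of these 2 elements. TCACNCCA and CCAAT, or their complements on the other strand, are in capitals, and each sequence is written 5′ to 3′ on the gene's strand. They come from chr13:119690101-119690350 (plus strand, Hmgcs1), chr8:64733730-64733759 (minus strand, Msmo1), chr15:82147019-82147180 (plus strand, Srebf2), chr5:28071162-28071362 (plus strand, Insig1) and chr12:84773153-84773250 (minus strand, Npc2). All lie upstream of the RefSeq start, and apart from the 30 bases of Msmo1, which GENCODE places in that gene's exon, they are stretches clear of annotated exons.
Hmgcs1: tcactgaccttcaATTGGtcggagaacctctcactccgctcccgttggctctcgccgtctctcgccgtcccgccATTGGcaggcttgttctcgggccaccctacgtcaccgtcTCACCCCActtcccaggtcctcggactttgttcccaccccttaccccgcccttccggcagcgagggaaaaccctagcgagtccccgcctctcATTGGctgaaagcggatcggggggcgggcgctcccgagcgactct
Msmo1: attcTCACTCCAtccgcgcagCCAATgact
Srebf2: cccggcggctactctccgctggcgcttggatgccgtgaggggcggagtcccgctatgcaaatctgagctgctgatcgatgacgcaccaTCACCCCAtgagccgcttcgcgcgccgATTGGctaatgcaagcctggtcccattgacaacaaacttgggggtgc
Insig1: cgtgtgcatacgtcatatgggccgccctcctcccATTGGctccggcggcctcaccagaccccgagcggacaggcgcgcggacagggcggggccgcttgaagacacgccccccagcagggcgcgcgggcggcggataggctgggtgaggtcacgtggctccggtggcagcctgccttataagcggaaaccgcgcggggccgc
Npc2: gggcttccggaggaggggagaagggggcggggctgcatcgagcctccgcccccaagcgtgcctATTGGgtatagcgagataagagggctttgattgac
The match lay 137 bases before the start in Hmgcs1, 177 in Msmo1 and 162 in Srebf2, each with CCAAT or its complement in the same window. A match of letters describes the sequence, and binding was not measured here.

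The synthesis enzymes fell together. Of the 17 measured, 15 fell and none rose, and the other 2, Tm7sf2 and Ebp, did not pass the test. Their summed level was 2500.7, 2496.7 and 2475.0 CPM in the siCtrl libraries and 1609.7, 1648.8 and 1574.4 CPM in the siAldoa libraries, a mean of 2490.8 ± 13.8 against 1611.0 ± 37.2 CPM (SD, n = 3), or 64.7%. The median enzyme stood at 99.7% to 101% of its siCtrl mean in the siCtrl libraries and at 67.2% to 70.9% in the siAldoa libraries. All 17 log2 fold changes were below 0, from -1.04 to -0.07, with a median of -0.524.

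**Figure D2:**
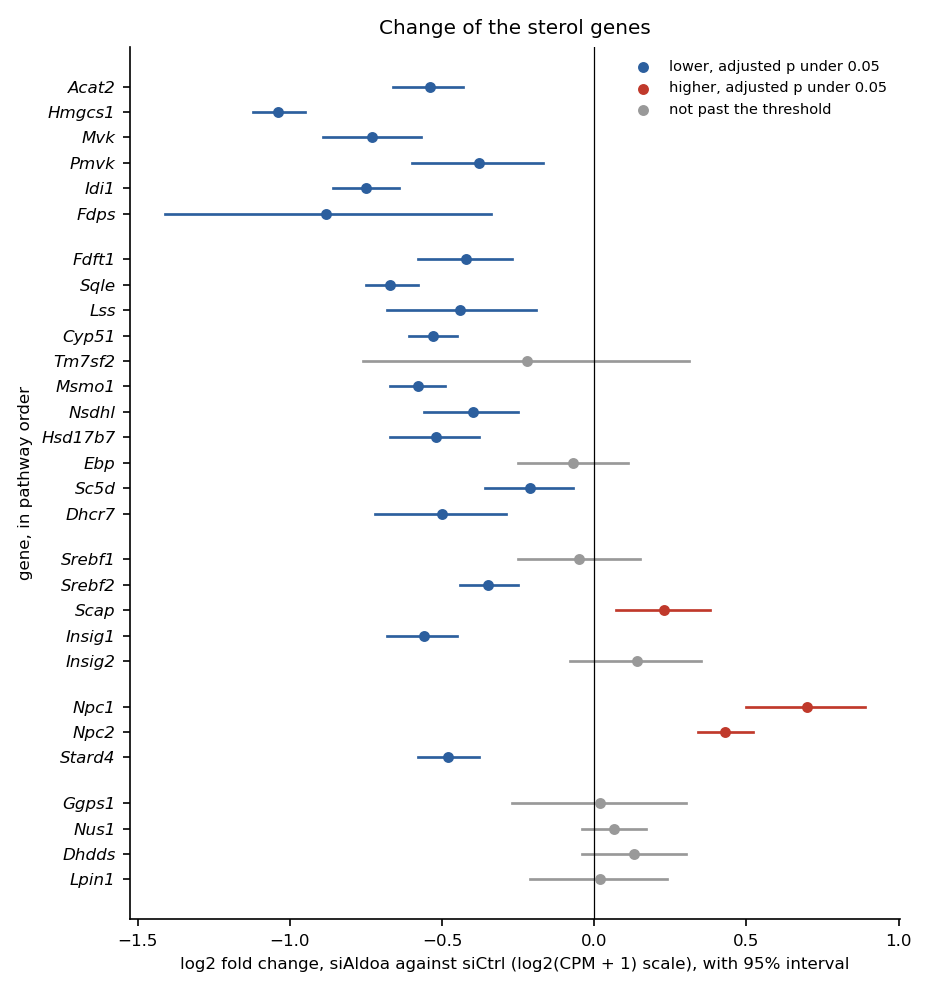
Log2 fold change of each sterol gene in siAldoa against siCtrl (x axis, log2(CPM + 1) scale), with limma's 95% interval as a bar and genes down the y axis in pathway order; blue genes fell, red genes rose and grey genes did not pass the adjusted p-value of 0.05. Hmgcs1 has the lowest value, -1.04, and Npc1 the highest, 0.70.

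All 6 measured genes of the mevalonate steps fell, with a median log2 fold change of -0.738. Hmgcs1, the synthase that makes HMG-CoA, lies on chromosome 13 of GRCm38 (119690379 to 119708260, plus strand). It measured 479, 504 and 473 CPM in siCtrl but 233, 246 and 230 CPM in siAldoa. The groups were far apart compared with their spread, 485 ± 16.4 against 236 ± 8.75 CPM (SD, n = 3), and siAldoa stood at 48.7% of siCtrl. The log2 fold change was -1.04 (standard error 0.042, adjusted p = 2.5e-14), the lowest of all sterol genes, and 0.189% of all genes had a lower one. Its promoter window held 4 CCAAT copies, the last at +11, after the start and outside the sequence shown. The windows of other genes that fell held from 0 copies (Acat2) to 5 (Mvk).

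Acat2, the cytosolic thiolase at the start of the pathway, measured 155, 147 and 144 CPM in siCtrl and 99.3, 100 and 106 CPM in siAldoa (log2 fold change -0.54, standard error 0.056, adjusted p = 1.4e-07). Mvk, mevalonate kinase, measured 76.4, 74.4 and 69.6 CPM in siCtrl and 41.6, 44.1 and 46.3 CPM in siAldoa (-0.73, standard error 0.077, adjusted p = 1.9e-07). In both genes the siAldoa libraries were all below the siCtrl libraries. Pmvk, the kinase of the next step, had a smaller difference, from 33.7, 35.8 and 35.7 CPM to 26.7, 29.7 and 23.8 CPM (-0.38, standard error 0.105, adjusted p = 0.011). The groups of Pmvk did not overlap, but its call was lost without siCtrl replicate 2 or 3 (adjusted p = 0.053 for each) or siAldoa replicate 3 (adjusted p = 0.072). Idi1, the isomerase that makes dimethylallyl diphosphate, was nearly the same in the siCtrl libraries, 169, 170 and 171 CPM, and measured 105, 98.1 and 99.5 CPM in siAldoa (-0.75, standard error 0.053, adjusted p = 3.6e-10).

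Fdps, farnesyl diphosphate synthase, had only 6 to 23 reads a library. It measured 4.11, 6.29 and 4.76 CPM in siCtrl and 2.43, 1.60 and 2.88 CPM in siAldoa. Its groups did not overlap, and the log2 fold change was -0.88 (standard error 0.257, adjusted p = 0.017). The call was lost without siCtrl replicate 2 (adjusted p = 0.097) or 3 (0.053) and without siAldoa replicate 1 (0.05 after rounding) or 2 (0.097). Most reads of this sequence stood on processed pseudogenes. Gm3571, 98.9% identical to Fdps over 1062 bases, measured 157, 151 and 150.3 CPM in siCtrl and 97.2, 97.8 and 101 CPM in siAldoa (log2 fold change -0.63, adjusted p = 7.9e-09). Gm5873, 96.7% identical over 1066 bases, measured 57.5, 42.4 and 48.4 CPM in siCtrl and 27.5, 29.9 and 33.3 CPM in siAldoa (log2 fold change -0.69, adjusted p = 4.1e-05). Reads from Fdps and from these copies cannot be told apart in the table, and Gm43738 shares a further 1124 exonic bases with Fdps on the same strand. With the reads of Fdps, Gm3571 and Gm5873 summed, the level was 219, 200 and 204 CPM in siCtrl and 127, 129 and 137 CPM in siAldoa. For this sum the log2 fold change came to -0.66 (standard error 0.052, adjusted p = 2.2e-09), near that of Sqle.

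**Figure D3:**
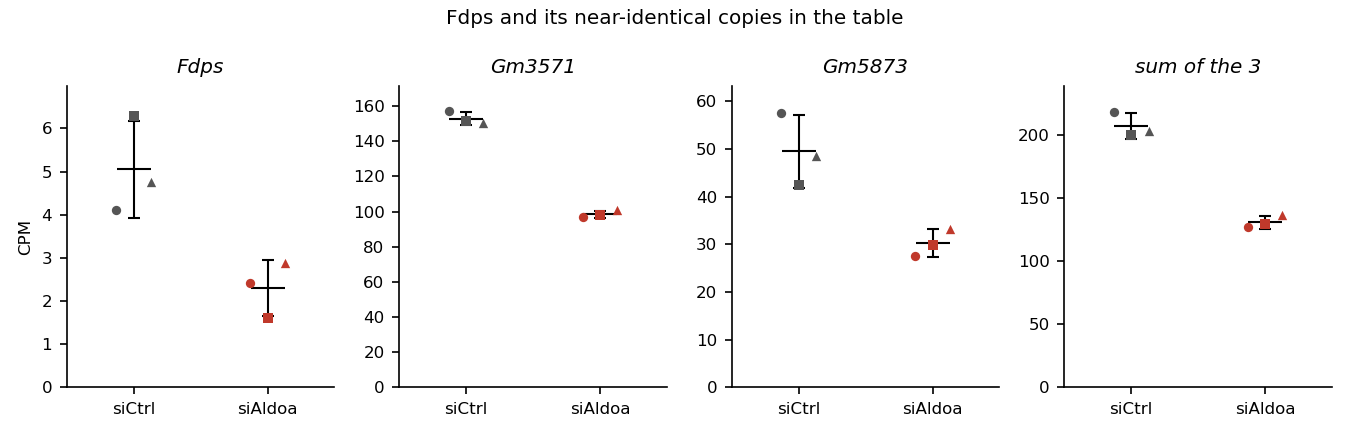
CPM (y axis, from 0, a scale for each panel) of Fdps, of its near-identical copies Gm3571 and Gm5873, and of their sum, for siCtrl in grey and siAldoa in red, with replicates 1, 2 and 3 as circles, squares and triangles and the mean and SD as bars. Fdps itself stays under 7 CPM whereas Gm3571 reaches 157 CPM, and in all 4 panels the siAldoa points are below the siCtrl points.

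Copies were found for other enzymes as well. Idi1 had the processed pseudogenes Gm13502 (log2 fold change -0.64, adjusted p = 2.9e-06) and Gm35570 (-0.80, adjusted p = 0.019), and Acat2 had Acat3, a protein-coding gene 97.7% identical over 1477 bases (-0.63, adjusted p = 0.00086). Fdft1 had Gm6781 (-0.40, adjusted p = 0.011). Summing the reads of each gene with its copies gave log2 fold changes of -0.73 for Idi1, -0.56 for Acat2 and -0.42 for Fdft1. Each sum was thus close to the gene's own value.

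From squalene to cholesterol, 9 of 11 genes fell, with a median log2 fold change of -0.436. The values of these steps (-0.67 to -0.07) and of the mevalonate steps (-1.04 to -0.38) overlapped, and the difference between the steps was not tested. Sqle, squalene epoxidase, a rate-limiting enzyme of the pathway, measured 350, 358 and 354 CPM in siCtrl and 229, 224 and 215 CPM in siAldoa. The level was thus 62.9% of siCtrl, with a log2 fold change of -0.67 (standard error 0.042, adjusted p = 4.4e-11). Cyp51, the lanosterol demethylase, measured 441, 424 and 431 CPM in siCtrl and 298, 306 and 290 CPM in siAldoa (-0.53, standard error 0.039, adjusted p = 7.2e-10). Msmo1, the methylsterol oxidase whose TCACNCCA match is shown above, measured 308, 295 and 315 CPM in siCtrl and 199, 205 and 210 CPM in siAldoa (-0.58, standard error 0.044, adjusted p = 1.2e-09). In these 3 genes the gap between the groups was several times the range within either group.

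Genes of lower abundance in these steps fell by smaller or similar amounts. Hsd17b7, a reductase of sterol demethylation, measured 77.8, 78.2 and 82.3 CPM in siCtrl and 54.5, 58.3 and 52.1 CPM in siAldoa (log2 fold change -0.52, adjusted p = 6.7e-06). Nsdhl, the dehydrogenase of the same reaction series, went from 110, 108 and 103 CPM to 89.9, 83.1 and 69.9 CPM (-0.40, adjusted p = 0.00031). Dhcr7, a reductase at the end of the pathway, went from 35.6, 33.4 and 36.5 CPM to 25.9, 24.6 and 23.0 CPM (-0.50, adjusted p = 0.00088). None of these groups overlapped.

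Fdft1, squalene synthase, measured 90.4, 78.0 and 77.8 CPM in siCtrl and 58.6, 66.0 and 57.9 CPM in siAldoa (log2 fold change -0.42, adjusted p = 0.00022). It shares 774 exonic bases with Ctsb, cathepsin B, on the opposite strand, which are 18.31% of its exons. Ctsb moved the other way, from 199, 191 and 197 CPM to 294, 303 and 306 CPM (log2 fold change 0.62, adjusted p = 3.3e-10), and the use of strand in the counting was not given in the sources used here. Lss, which closes squalene epoxide into lanosterol, measured 32.6, 30.6 and 25.4 CPM in siCtrl and 21.0, 23.0 and 20.4 CPM in siAldoa (-0.44, adjusted p = 0.01). The Lss call was lost without siCtrl replicate 1 (adjusted p = 0.08) or 2 (0.062) and without siAldoa replicate 1 (0.051) or 3 (0.062).

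The remaining 3 genes fell by a small amount or did not pass the test. Sc5d, a sterol desaturase, measured 91.2, 106 and 104 CPM in siCtrl and 82.6, 92.7 and 84.0 CPM in siAldoa (log2 fold change -0.21, adjusted p = 0.029). Its groups overlapped, siAldoa replicate 2 lying above siCtrl replicate 1, and the exact permutation p was 0.2. The Sc5d call was lost without siCtrl replicate 2 (adjusted p = 0.17) or 3 (0.15) and without siAldoa replicate 1 (0.15) or 3 (0.13). Ebp, the sterol isomerase, measured 40.0, 44.9 and 42.1 CPM in siCtrl and 40.7, 41.2 and 38.8 CPM in siAldoa (-0.07, 95% interval -0.25 to 0.11, adjusted p = 0.65). The bounds of this interval leave out a change the size of that of Sqle. Tm7sf2, a sterol reductase, had 11 to 23 reads a library and a wide interval (-0.22, 95% interval -0.76 to 0.31, adjusted p = 0.62), and its groups overlapped. That interval includes a change the size of that of Sqle. Tm7sf2 shares 532 exonic bases, 12.08% of its exons, with Vps51 on the same strand (log2 fold change -0.03, adjusted p = 0.87).

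Per kilobase of annotated exons, the siCtrl level was highest for Hmgcs1 (106 CPM per kb), followed by Cyp51 (97.8), Sqle (63.8), Acat2 (58.5), Insig1 (53.4) and Msmo1 (49.9). The lowest levels among the enzymes were those of Lss (2.74), Fdps (1.2, with most of its sequence counted on pseudogenes) and Tm7sf2 (1.19). These lengths join the exons of all annotated transcripts, so they overstate the length of genes with many isoforms.

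Among the regulators, Srebf2 and Insig1 fell, Scap rose, and Srebf1 and Insig2 did not pass the test. Srebf2, which encodes SREBP2 and is one of its own targets, measured 351, 324 and 327 CPM in siCtrl and 259, 252 and 276 CPM in siAldoa. The means were 334 ± 14.5 and 262 ± 12.5 CPM (SD, n = 3), 78.5% of siCtrl, with a log2 fold change of -0.35 (standard error 0.046, adjusted p = 4.3e-06). Srebf1, which encodes the related factor SREBP1 of fatty acid synthesis, measured 58.1, 47.9 and 53.4 CPM in siCtrl and 46.4, 48.1 and 60.0 CPM in siAldoa. The Srebf1 libraries of both groups were mixed (-0.05, 95% interval -0.25 to 0.15, adjusted p = 0.79). The log2 ratio of Srebf2 to Srebf1 was 2.57, 2.73 and 2.59 in siCtrl and 2.45, 2.37 and 2.19 in siAldoa, a difference of -0.30 (exact permutation p = 0.1, the smallest possible).

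Insig1, the Insig gene that SREBP2 induces, measured 156, 173 and 166 CPM in siCtrl and 106, 113 and 115 CPM in siAldoa, 67.4% of siCtrl. Its log2 fold change was -0.56 (standard error 0.057, adjusted p = 9.4e-08), and the groups did not overlap. Insig2, its paralog, measured 30.4, 35.6 and 36.0 CPM in siCtrl and 32.9, 42.5 and 37.2 CPM in siAldoa (0.14, 95% interval -0.08 to 0.35, adjusted p = 0.42), with overlapping groups. The log2 ratio of Insig1 to Insig2 was 2.32, 2.25 and 2.18 in siCtrl and 1.65, 1.39 and 1.61 in siAldoa. It was lower in every siAldoa library, by a difference of -0.70 in the means (exact permutation p = 0.1, the smallest possible). Scap, the escort of SREBP proteins, measured 69.0, 64.3 and 75.9 CPM in siCtrl and 82.0, 75.9 and 86.9 CPM in siAldoa (0.23, standard error 0.074, adjusted p = 0.033). The Scap groups touched, the exact permutation p was 0.2, and the call was lost without siCtrl replicate 1 (adjusted p = 0.11) or 2 (0.19) and without siAldoa replicate 1 (0.12) or 3 (0.18).

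**Figure D4:**
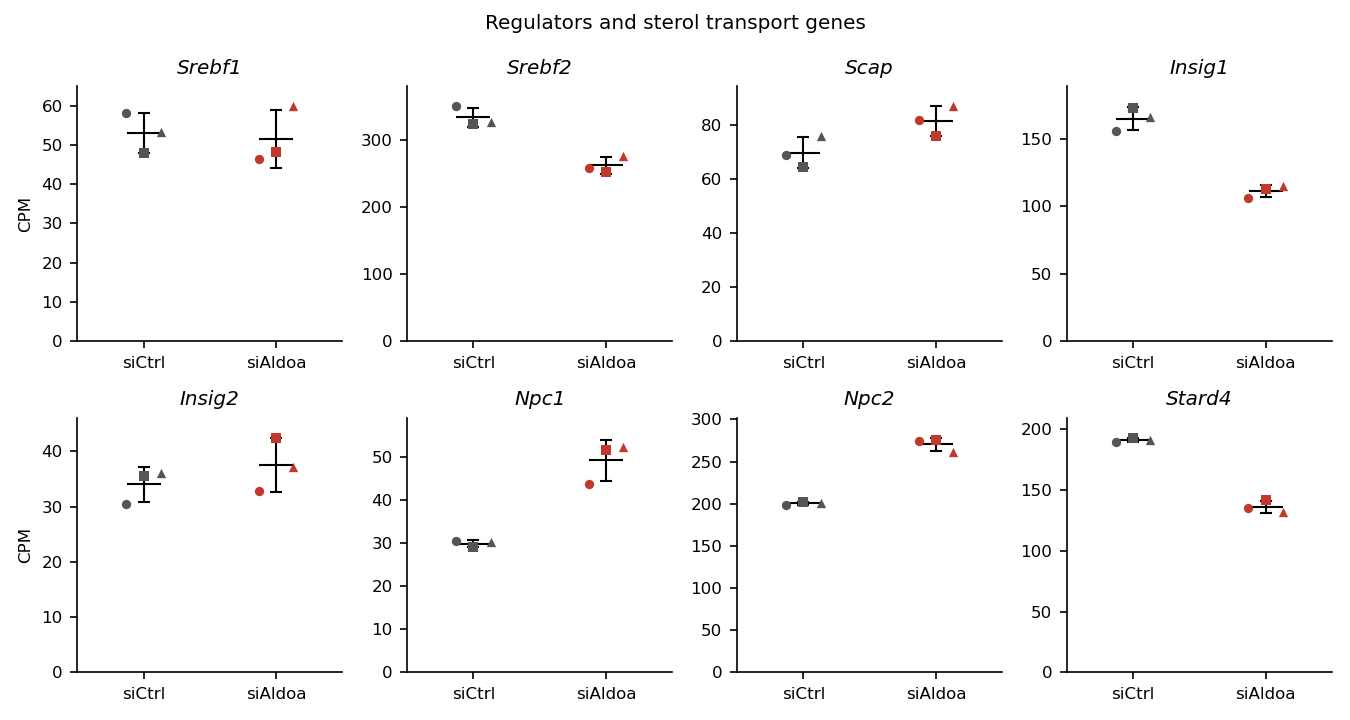
CPM (y axis, from 0, a scale for each panel) of SREBP regulators and sterol transport genes, for siCtrl in grey and siAldoa in red, with replicates 1, 2 and 3 as circles, squares and triangles and the mean and SD as bars. Srebf2, Insig1 and Stard4 are lower and Npc1 and Npc2 higher in every siAldoa library, whereas Srebf1, Scap and Insig2 have groups that touch or overlap.

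The transport genes moved in both directions. Npc1, the membrane protein that exports cholesterol from the lysosome, measured 30.4, 29.0 and 30.2 CPM in siCtrl and 43.7, 51.6 and 52.4 CPM in siAldoa, 165% of siCtrl. The siAldoa libraries were all above the siCtrl libraries, with a log2 fold change of 0.70 (standard error 0.094, adjusted p = 6.1e-06), the highest of the sterol genes. It shares 511 exonic bases, 4.52% of its exons, with 3110002H16Rik on the opposite strand (log2 fold change 0.30, adjusted p = 0.10). Npc2, the soluble partner that hands cholesterol to Npc1, measured 198, 202 and 201 CPM in siCtrl and 274, 276 and 261 CPM in siAldoa, 135% of siCtrl (0.43, standard error 0.044, adjusted p = 1.3e-07). Its groups did not overlap either.

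Stard4, a cytosolic sterol carrier, went the way of the synthesis enzymes, from 190, 193 and 191 CPM to 135, 142 and 132 CPM. Its log2 fold change was -0.48 (standard error 0.05, adjusted p = 1.4e-07), with the siAldoa libraries at 71.6% of siCtrl on average. Abca1, the exporter of cholesterol to lipoproteins, had 0 to 3 reads in every library, which is at or under the floor of 3 reads in both groups, and no fold change is given.

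None of the 4 genes of the isoprenoid branch and phosphatidic acid metabolism passed the test. Most genes of the table did not pass it either, with 10.0% called lower and 10.4% higher. Ggps1, which makes geranylgeranyl diphosphate from the product of Fdps, measured 21.6, 21.3 and 27.3 CPM in siCtrl and 25.1, 19.0 and 27.5 CPM in siAldoa (log2 fold change 0.02, 95% interval -0.27 to 0.30). Nus1 and Dhdds, the subunits of the enzyme that makes the dolichol precursor, had log2 fold changes of 0.07 (95% interval -0.04 to 0.17) and 0.13 (-0.04 to 0.30). Lpin1, a phosphatidate phosphatase that is also a known SREBP target, measured 25.2, 27.9 and 26.7 CPM in siCtrl and 25.4, 28.6 and 27.0 CPM in siAldoa (0.02, 95% interval -0.21 to 0.24). The groups of all 4 genes overlapped, and none of the intervals reached the change of Idi1. Over all genes, the siAldoa libraries lay wholly below siCtrl in 17.1% and wholly above in 16.7%.

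Other genes of the pathway, taken from 4 fixed lists, moved less uniformly than the enzymes did, without a test of this difference. Of 50 genes with a row, 12 fell and 8 rose, with a median log2 fold change of -0.014, beside 10.0% of all genes lower and 10.4% higher. In the list of electron donors and acetyl-CoA supply, 5 of 8 fell and none rose. Cyb5b, a cytochrome b5, and Cyb5r3, a cytochrome b5 reductase, had log2 fold changes of -0.35 (adjusted p = 1.5e-06) and -0.23 (adjusted p = 0.0002). Cyb5a, another cytochrome b5 of the list, did not pass the test (0.02, adjusted p = 0.93). Por, a further electron donor, did not pass it either (-0.17, adjusted p = 0.1). Aacs, which activates acetoacetate for lipid synthesis, measured 170, 153 and 160 CPM in siCtrl and 122, 114 and 120 CPM in siAldoa (-0.44, adjusted p = 2.4e-06).

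In the list of SREBP processing and sterol sensing, 2 of 12 genes fell and none rose, beside 10.0% and 10.4% of all genes. A difference from these shares was not tested. Tmem97, a sterol-binding protein of the endoplasmic reticulum, had a log2 fold change of -0.32 (adjusted p = 0.00015). Mbtps1, the site-1 protease that cleaves SREBP proteins, measured 236, 242 and 220 CPM in siCtrl and 193, 192 and 202 CPM in siAldoa (-0.25, adjusted p = 0.00049). Both were lower in every siAldoa library.

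Of the list of sterol uptake, esterification, transfer and LXR genes, 6 of 17 were higher and 2 lower, beside 10.4% and 10.0% of all genes. The number of lower genes was thus near the share of all genes. Mylip, the ubiquitin ligase that lowers lipoprotein receptors, measured 22.7, 15.9 and 12.7 CPM in siCtrl and 30.8, 36.6 and 29.3 CPM in siAldoa (log2 fold change 0.91, adjusted p = 0.00012). Nr1h2, the oxysterol receptor LXR-beta, went from 40.8, 36.1 and 35.2 CPM to 52.6, 55.1 and 53.2 CPM (0.51, adjusted p = 9.8e-05), and Gramd1b, a carrier of plasma membrane cholesterol, from 32.0, 35.3 and 33.9 CPM to 43.2, 48.4 and 53.4 CPM (0.50, adjusted p = 0.00035). The Mylip call was lost in 3 alternative settings, among them limma without a mean-variance trend (adjusted p = 0.058). That of Gramd1b was lost in 2 settings and that of Nr1h2 in 1. Lipa, the lysosomal acid lipase that frees the cholesterol handed to Npc2, was named after its values were seen. It measured 53.4, 53.6 and 57.1 CPM in siCtrl and 73.4, 77.8 and 80.6 CPM in siAldoa (0.49, adjusted p = 1.7e-05). Scarb1, a lipoprotein receptor, fell (-0.34, adjusted p = 7.3e-05). Lrp1, another receptor of lipoproteins, had a value of -0.13 (adjusted p = 0.043), which was past the threshold by a small margin and was lost without siCtrl replicate 1 (adjusted p = 0.15) or 3 (0.19), without siAldoa replicate 1 (0.24) or 2 (0.10), and with the replicate number as a block (0.067).

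In the list of isoprenoid use, 3 of 13 genes fell and 2 rose, all by small amounts. Over all genes 10.0% fell and 10.4% rose, and a difference from these shares was not tested. Pdss1 and Pdss2, the subunits that make the ubiquinone side chain, had log2 fold changes of -0.32 (adjusted p = 0.021) and -0.20 (adjusted p = 0.0076), and Coq2, which attaches that chain, had -0.24 (adjusted p = 0.017). Icmt, a methyltransferase of prenylated proteins, and Rabggtb, a subunit of Rab geranylgeranyl transferase, had 0.22 (adjusted p = 0.013) and 0.13 (adjusted p = 0.043). Each of these 5 calls was lost without siCtrl replicate 3, with adjusted p-values of 0.064 for Pdss1, 0.057 for Pdss2, 0.092 for Coq2, 0.07 for Icmt and 0.12 for Rabggtb. The same held without siAldoa replicate 2 for Pdss1 (0.098), Pdss2 (0.062), Coq2 (0.076) and Icmt (0.069). Pdss1 was also lost without siCtrl replicate 1 (0.051) or 2 (0.097) or siAldoa replicate 3 (0.10), Icmt without siAldoa replicate 3 (0.052), and Rabggtb without siCtrl replicate 1 (0.11) or 2 (0.085) or siAldoa replicate 1 (0.18) or 3 (0.14). With the replicate number as a block, the adjusted p of Rabggtb was 0.073.

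**Figure D5:**
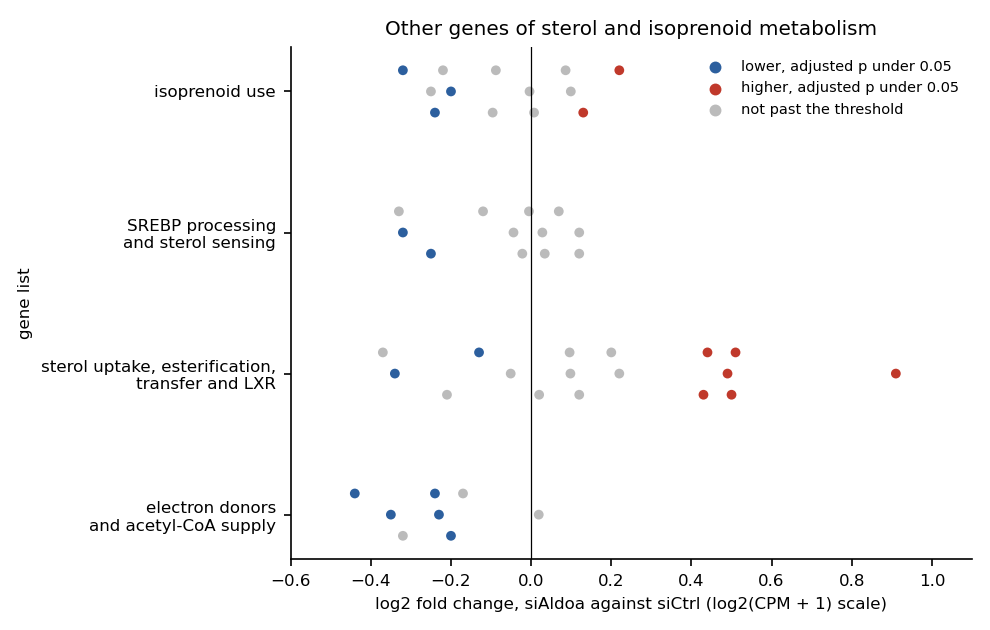
Log2 fold change in siAldoa against siCtrl (x axis, log2(CPM + 1) scale) of 50 further genes of sterol and isoprenoid metabolism, a point per gene, by list down the y axis; blue genes fell, red genes rose and grey genes did not pass the adjusted p-value of 0.05. The red point at 0.91 is Mylip, and the list of electron donors and acetyl-CoA supply has 5 blue points and no red one.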

How the data were processed

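Per the labels and the study's methods, the authors isolated poly(A) RNA, made directional libraries, aligned reads to mm10 with Bowtie2 (version 2.2.7, in the submitters' processing notes), drew equal numbers of reads per sample at random, counted reads per gene and deposited the counts as CPM of an effective library size. Bowtie2 does not split reads over introns. The annotation, strand and treatment of reads with several matches are not given in the sources used here. Spike-in RNA was added at lysis in replicate 1 and after extraction in replicates 2 and 3. The deposited table of the authors' own comparison holds log2 fold changes, log2 mean CPM and p-values, and was not used. The stated minimum of 12 reads was not met by 1834 genes.

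CPM values were whole multiples of 1 read (100% of values, tolerance 0.001 reads), so reads were recovered. PCR reads lack molecular identifiers. Standard errors and intervals are limma's and come from the moderated variance between the libraries of a group. The test was limma with a mean-variance trend (limma 3.58.1 in R 4.3.3), run on the log2 of CPM plus a pseudocount of 1 with no filter, and p-values were adjusted by Benjamini-Hochberg over 18001 genes. The alternatives were a pseudocount of 0.1, a lower-quartile filter, other scalings, no trend, edgeR (version 4.0.16), DESeq2 (version 1.42.0), a replicate block, replicates 1 and 2 averaged, and libraries left out. The method was run on simulated counts with known changes, in libraries drawn independently of each other. Unlike the real data, these had no closer pair of replicates, so the simulation does not test p-values under that structure. Gene positions came from GENCODE M21 (17932 identifiers matched), and copies were transcripts at least 90% identical over 200 bases, summed if aligned over 600 bases or more. The named genes were all members, Aldoa and, in each further list, the 3 lowest and 3 highest called genes whose groups did not overlap. Copies, overlapping genes, Lipa, Cyb5a, Por, Krt8, Krt18 and Cd14 were named after their values were seen. Members and lists were chosen with earlier results of these data known.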

Additional observations from a re-analysis of the deposited data

How the results depend on the processing

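None of the 21 calls among the sterol genes changed direction under any alternative run. With a pseudocount of 0.1, the lower-quartile filter or edgeR's quasi-likelihood test, none was lost. Summing near-identical copies, an alternative chosen after seeing the data, lost none either. TMM scaling of the recovered reads gave back the results of the main fit, with 3676 genes called, so it is no separate check. Scap was lost with quantile normalization (adjusted p = 0.063) and with replicates 1 and 2 averaged (0.074). Without the mean-variance trend 14 sterol genes were called, with Pmvk, Fdps, Fdft1, Lss, Nsdhl, Sc5d and Scap lost, and DESeq2 called 16, losing Pmvk, Lss, Sc5d and Scap and giving Fdps no adjusted p-value. Over all genes 3676 were called, 1809 lower and 1867 higher. Without the trend there were 1440 (616 lower, 824 higher), and in the further lists 7 (4 lower, 3 higher) in place of 20. DESeq2 called 2183 genes (1117 lower, 1066 higher). The cause of these differences was not tested. With libraries or replicate numbers left out, 1014 to 2813 genes were called (520 to 1371 lower, 494 to 1464 higher). The same settings called 13 to 20 sterol genes (11 to 17 lower, 2 to 3 higher) with a median log2 fold change of -0.449 to -0.339, and 6 to 17 genes of the further lists (5 to 10 lower, 1 to 7 higher). The log2 fold change of Aldoa lay between -3.0 and -2.9. Fewer samples enter these fits. Of the uncalled genes, Srebf1 changed sign with replicates 1 and 2 averaged (0.0041), and with libraries left out Srebf1 ranged from -0.16 to 0.085, Ggps1 from -0.088 to 0.17, Lpin1 from -0.023 to 0.061 and Tm7sf2 from -0.6 to 0.11.

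With the replicate number as a block, 3170 genes were called (1559 lower, 1611 higher), 21 of them sterol genes (18 lower, 3 higher). In the further lists the block left 17 calls (10 lower, 7 higher), and of the genes named Rabggtb (adjusted p = 0.073) and Lrp1 (0.067) were lost. Libraries that share a number, each taken as its deviation from its group's mean, correlated at 0.03, 0.0135 and 0.134 for replicates 1, 2 and 3 across 10059 genes (genes are no independent replicates). Replicate 3 correlated best with its own number, whereas siAldoa replicates 1 and 2 each correlated better with another siCtrl number. The numbers also differ in when spike-in RNA was added, so the block may carry handling, and the fit without it was kept because these correlations are not all above 0.1. Counts were lowest for Fdps, Tm7sf2 and Abca1, with 0 to 23 reads a library.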
